A study of Homo sapiens with 10 samples.

Results

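The late transcriptional response of MDA-MB-231 cells to dasatinib was compared with the early one, as the 2 libraries of cells treated for 48 h against the 2 libraries of cells treated for 6 h. These 4 libraries were chosen by time of treatment alone, out of 10 libraries in the series. MDA-MB-231 is an established human triple-negative breast adenocarcinoma line of the basal B type, which is mesenchymal-like, and the cells carried no engineered change (wild type in the labels). The other groups were cells at 0 h, titled Sham, and cells treated for 12 h and 24 h, each with 2 libraries labelled as biological replicates. The 6, 12, 24 and 48 h groups received dasatinib. The dose was 100 nM, taken from a figure legend of the paper and not from the labels. The 0 h group was taken as the untreated start from its title and time, although the treatment field of its labels also names dasatinib. Untreated cells kept in culture for 48 h were not analysed here, so time on the drug and time in culture cannot be told apart, and in bulk RNA fewer cells that express a gene cannot be told apart from less of its RNA per cell.

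Dasatinib binds ABL, the SRC family kinases and several receptor kinases, and blocks their activity. SRC family kinases relay signals from integrins and growth factor receptors to the actin cytoskeleton and to the RAS–ERK cascade, and ERK in turn drives both early response genes and the genes that damp it, such as the Sprouty proteins and the dual-specificity phosphatases. Cells that leave the cycle switch off replication genes through E2F sites and mitotic genes through the cell cycle genes homology region (CHR), which repressor complexes of the pocket proteins occupy. Interferon-stimulated genes, in contrast, are switched on by a complex that holds STAT2 and IRF9, through the interferon-stimulated response element (ISRE).

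The count table held 36687 gene symbols, and 15727 genes passed the low-count filter. The 6 h libraries had total counts of 43432997 and 46592728, and the 48 h libraries 48950416 and 43226040. Levels are given below as CPM, which are counts divided by the TMM-scaled library size, replicate 1 before replicate 2, and differences as log2 differences from edgeR's quasi-likelihood test with Benjamini-Hochberg adjusted p-values over all genes tested. Mesenchymal markers were expressed at both times, and luminal and epithelial markers were mixed. The summed level of 15 mesenchymal genes was 2200 and 2220 TPM (a transcript count scaled by length and depth) at 6 h and 2110 and 2110 TPM at 48 h. The sum of 22 luminal and epithelial markers was 939 and 956 TPM at 6 h and 1440 and 1450 TPM at 48 h. Of these, *KRT8* stood at 192 and 206 TPM at 6 h, *CDH1* reached at most 10 counts and *PGR* was at 0 counts in all 10 libraries. Of 12 haematopoietic markers, 6 had at most 3 counts in any library, and their sum was 0.752 and 2.02 TPM at 6 h and 4.9 and 3.51 TPM at 48 h. Fibroblast markers summed to 4.94 and 5.27 TPM at 6 h and 3.54 and 3.78 TPM at 48 h, endothelial markers to 1.81 and 2.36 TPM and then 3.89 and 4.87 TPM. Mitochondrially encoded mRNAs took 4.91% and 5.47% of counts at 6 h and 7.24% and 6.73% at 48 h, and cytosolic ribosomal protein mRNAs 7.43% and 7.49% against 5.42% and 5.24%. Short transcripts stood lower at 48 h than long ones: the median log2 difference was −0.25 over genes with transcripts of 53 to 2280 bases and 0.20 over those with transcripts of 5520 bases or more. With the dependence of each library on GC content and transcript length taken out, an alternative added after the data were seen, 4772 of the 5221 calls below held in the same direction and 6 genes had the opposite sign. The library of 12 h replicate 1 stood apart (highest correlation with another library 0.955, against 0.983 to 0.987 elsewhere), and list counts that move by more than 1.5-fold without it are given beside the list.

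Between 6 h and 48 h, 5221 of 15727 genes changed (33.2% of those tested). Of these, 2547 rose (16.2%) and 2674 fell (17%), and 1105 rose by 2-fold or more (7.03%) while 952 fell by 2-fold or more (6.05%). The response at 6 h against 0 h was smaller in count, with 430 genes called (2.73%). The median log2 difference over all genes tested was 0.01 with quartiles of −0.47 and 0.52. Both 48 h libraries lay on 1 side of both 6 h libraries for 76% of genes, so that non-overlap alone says little of a single gene. The counts depend on the spread that all groups share: without 12 h replicate 1, 4031 genes rose and 4332 fell. Of the 27 genes named below as not passing the test, 20 were called without that library. Without 12 h replicate 2 the counts were 4027 and 4322. Without 6 h replicate 1 or 2, and without 48 h replicate 1 or 2, 1392 to 1571 genes rose and 1400 to 1690 fell.

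**Figure D1:**
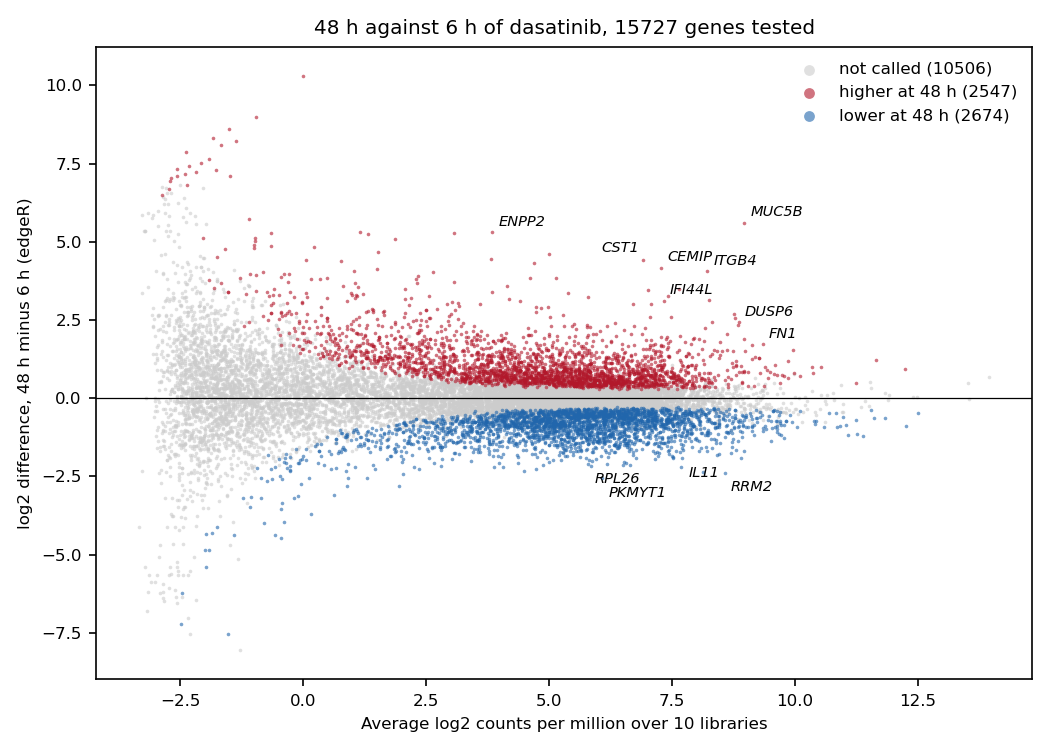
Log2 difference of every gene tested (48 h minus 6 h, vertical axis) against its average log2 CPM over 10 libraries (horizontal axis); red points rose, blue points fell and grey points were not called, at an adjusted p under 0.05. Where the average log2 CPM is 2 or more, the called differences run from −2.56 for *PKMYT1* to 5.61 for *MUC5B*, and the widest scatter lies on the left, among genes with few counts.

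Genes of DNA synthesis and mitosis stood out on the falling side, and secreted, adhesion and interferon-stimulated genes on the rising side. Where the average log2 CPM was 2 or more, the largest fall was that of *PKMYT1* (chromosome 16, 2968024 to 2980479, minus strand, GRCh38), the kinase that holds CDK1 inactive at the Golgi and endoplasmic reticulum. It stood at 102 and 114 CPM at 6 h and 20.2 and 16.5 CPM at 48 h (log2 difference −2.56, SE 0.15, adjusted p = 3.69e-06). *RRM2*, the small subunit of ribonucleotide reductase that makes deoxynucleotides, stood at 610.1 and 588 CPM and then 118 and 112 CPM (log2 difference −2.38, SE 0.11, adjusted p = 1.68e-06). *ODC1*, the rate-limiting enzyme of polyamine synthesis, went from 480.3 and 487 CPM to 86.8 and 99.5 CPM (log2 difference −2.38, SE 0.13, adjusted p = 2.79e-06). The other falls in the leading group were those of *EEPD1* (−2.41), *TEDC1* (−2.34), *PEAR1* (−2.27), *TUBA4A* (−2.26), *MRPL12* (−2.22), *MYBL2* (−2.20) and *OSGIN1* (−2.20), as log2 differences.

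Under the same minimum the largest rise was that of *MUC5B* (chromosome 11, 1223066 to 1262172, plus strand, GRCh38), a gel-forming airway mucin. It stood at 36.3 and 43.4 CPM at 6 h and 1984 and 1906 CPM at 48 h (log2 difference 5.61, SE 0.25, adjusted p = 1.52e-06). *ENPP2*, the secreted enzyme autotaxin that makes lysophosphatidic acid, stood at 1.35 and 1.12 CPM and then 44.9 and 52.2 CPM (log2 difference 5.30, SE 0.30, adjusted p = 3.48e-06). *CEMIP*, a hyaluronan-binding protein involved in hyaluronan breakdown, went from 24.9 and 27.6 CPM to 481 and 465 CPM (log2 difference 4.17, SE 0.15, adjusted p = 4.32e-07). In each of these genes the lowest 48 h library was far above the highest 6 h library. The leading genes were named only where every 48 h library lay beyond every 6 h library. Non-overlap was thus a condition of the choice and not a result. The other rises in the leading group were those of *SLITRK6* (5.27), *CST4* (4.60), *SNED1* (4.44), *CST1* (4.40), *RAB17* (4.34), *ITGB4* (4.07) and *SCEL* (4.02). *CST1* and *CST4* are near-identical salivary cystatins, whose reads the counting may have split, and *MUC5B* has a close relative in *MUC5AC*.

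**Figure D2:**
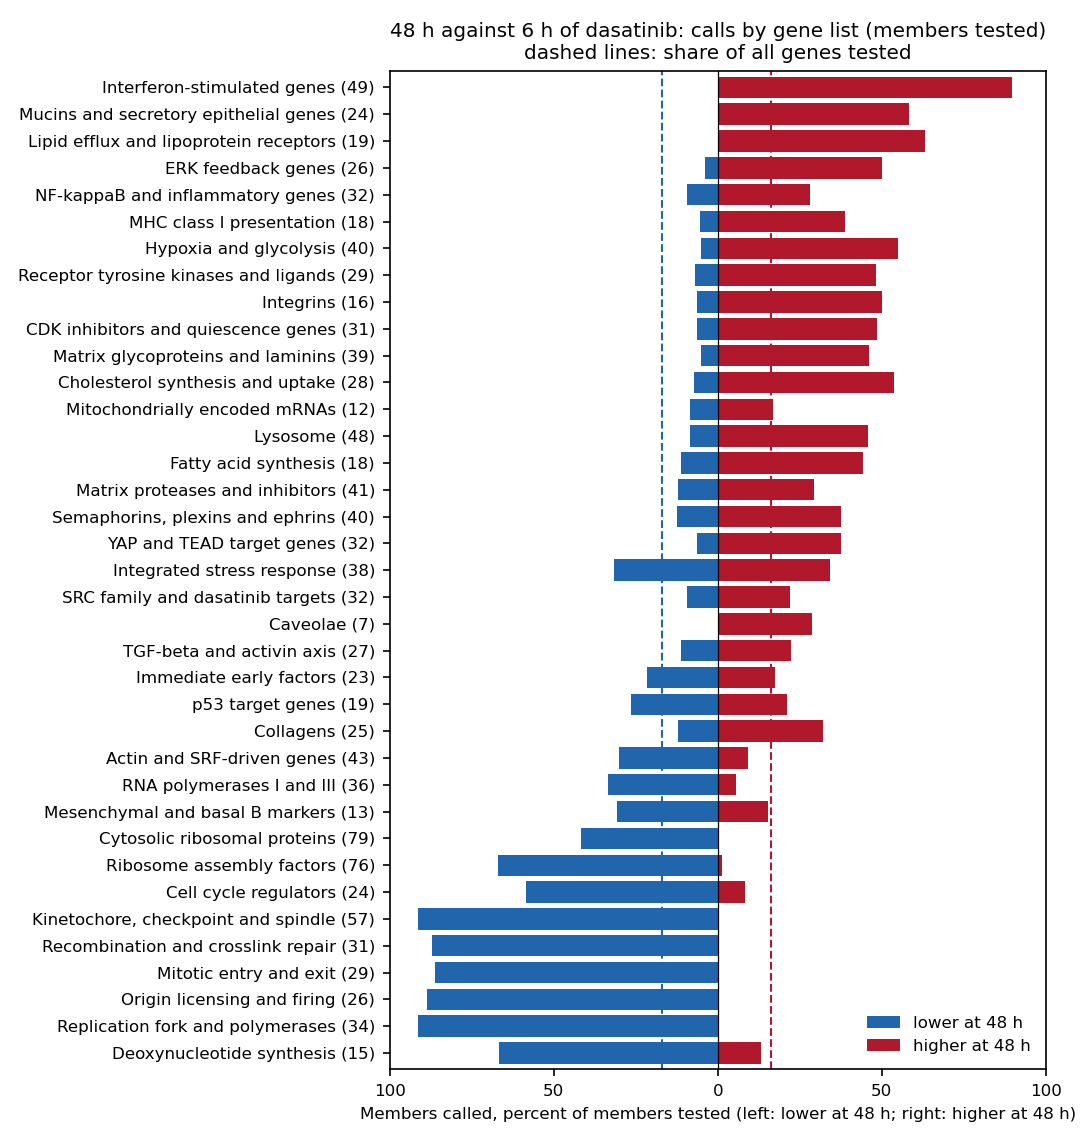
Share of the tested members of each gene list that fell (left, blue) or rose (right, red) between 6 h and 48 h, with the number tested in parentheses and the share of all genes as dashed lines (17% and 16.2%); lists are ordered by median log2 difference. The lists of DNA replication and mitosis have 66.7% to 91.2% of members lower, and the interferon-stimulated genes have 89.8% higher and none lower.

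Genes that license and fire replication origins fell as a group. Of 26 tested, 23 fell and none rose, against 17% of all genes lower, and the median log2 difference was −1.29. *CDT1*, which loads the MCM helicase onto origins, had a log2 difference of −2.12 (adjusted p = 1.42e-05), and *ORC1*, a subunit of the origin recognition complex, −2.04 (adjusted p = 8.22e-05). *MCM2*, a subunit of the helicase itself, went from 124 and 146 CPM to 48.2 and 44.2 CPM (log2 difference −1.55, SE 0.13, adjusted p = 2.11e-05). *CDC6*, the other loader of the helicase, stood at 189 and 179 CPM and 69.0 and 64.0 CPM (log2 difference −1.47, SE 0.10, adjusted p = 8.24e-06), and *MCM10*, which opens the helicase for firing, at 81.1 and 79.5 CPM and 23.0 and 28.3 CPM. All 6 MCM2–7 subunits fell, as did *CDC45* and all 4 GINS genes. *ORC2*, *ORC3* and *ORC4*, the subunits that hold the origin complex together throughout the cycle, did not pass the test, with log2 differences of −0.12, −0.28 and 0.25, while without 12 h replicate 1 1 member of the list, *ORC4*, was called higher.

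Genes of the fork itself fell too. Of 34 genes of polymerases, clamp, clamp loader and fork factors, 31 fell and none rose, against 17% and 16.2% of all genes (median −1.40). Without 12 h replicate 1, 1 rose. *PCNA*, the sliding clamp, went from 336 and 324 CPM to 117 and 121 CPM (log2 difference −1.47, SE 0.17, adjusted p = 0.000114), and *CHAF1B*, a subunit of the factor that places histones behind the fork, had a log2 difference of −1.97 (adjusted p = 6.89e-05). Of 15 deoxynucleotide enzymes, 10 fell, with *TYMS*, the target of fluorouracil, at 87.0 and 89.7 CPM and then 29.6 and 28.4 CPM (log2 difference −1.61, SE 0.15, adjusted p = 4.56e-05). The 2 members that rose do not serve S-phase supply in the same way: *SAMHD1* (1.23) breaks deoxynucleotides down, and *TK2* (1.31) is the mitochondrial thymidine kinase, while its S-phase counterpart *TK1* had a log2 difference of −1.68. Of 31 genes of recombination and crosslink repair, 27 fell and none rose (median −1.26). *BRCA1*, which directs breaks to repair by recombination, went from 58.0 and 59.4 CPM to 21.2 and 22.1 CPM (log2 difference −1.44, SE 0.16, adjusted p = 0.000116).

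The promoters of these replication genes carry E2F sites more often than promoters do in general. The pattern searched was TTT, then 2 bases that are each C or G, then CGC, on both strands of the 300-base RefSeq promoter windows of GRCh38.p14, 250 bases before to 50 after each start. It was found in 11 of 22 promoters of the origin list (50%) and 11 of 30 of the fork list (36.7%), against 3.33% of 27305 promoters in the table. Among promoters of the genes tested the share was 5.14%. The stretches of *E2F1*, *PCNA* and *MCM3* are shown because their transcripts fell and their site lies before the start. Capitals mark the match to the E2F pattern nearest the start, in *PCNA* on the opposite strand. The *E2F1* stretch also holds a match on the opposite strand (gcggcaaa), left in lower case.
E2F1 (chr20:33686386-33686430, minus strand): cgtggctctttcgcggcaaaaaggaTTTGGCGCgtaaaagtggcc
PCNA (chr20:5126649-5126706, minus strand): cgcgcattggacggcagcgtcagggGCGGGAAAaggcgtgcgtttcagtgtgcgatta
MCM3 (chr6:52284884-52284941, minus strand): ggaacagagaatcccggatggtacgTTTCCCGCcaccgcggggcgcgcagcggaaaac
A match to the pattern is a description of the sequence and not a measured binding site.

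Mitotic genes fell to a like extent by 48 h. Of 29 genes of mitotic entry and exit, 25 fell and none rose, against 17% and 16.2% of all genes (median −1.29). Without 12 h replicate 1, 1 rose. Of 57 genes of the kinetochore, the checkpoint and the spindle, 52 fell and none rose (median −1.26). *CDK1*, the mitotic kinase, stood at 373 and 346 CPM at 6 h and 114 and 125 CPM at 48 h (log2 difference −1.59, SE 0.13, adjusted p = 1.96e-05). *CCNB1*, its cyclin, stood at 225 and 226 CPM and 94.7 and 102 CPM (log2 difference −1.19, SE 0.10, adjusted p = 2.45e-05). *AURKB*, the kinase of the chromosomal passenger complex, went from 157 and 144 CPM to 29.5 and 38.9 CPM (log2 difference −2.14, SE 0.29, adjusted p = 0.000377). The checkpoint kinase *BUB1* changed less, from 176 and 174 CPM to 94.4 and 91.7 CPM (log2 difference −0.91, SE 0.12, adjusted p = 0.000335), and the cytokinesis motor *KIF20A* had a log2 difference of −1.44 (adjusted p = 1.06e-05). The anaphase-promoting complex subunit *CDC27* did not pass the test (0.31).

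Origin, fork and recombination genes were mostly called lower by 24 h, and many mitotic genes were called after it, a difference between lists that was not tested. Between 6 h and 24 h, 23 of 26 origin genes, 28 of 34 fork genes and 24 of 31 recombination genes fell, against 9.65% of all genes tested. In the same interval 14 of 29 genes of mitotic entry and exit and 27 of 57 genes of the kinetochore and spindle fell. Between 24 h and 48 h, 202 genes of the whole table fell (1.28%), and the mitotic lists then had 16 of 29 and 35 of 57 members lower. In that second interval 2 of 26 origin genes, 2 of 34 fork genes and 4 of 31 recombination genes fell. The deoxynucleotide enzymes lay between these patterns, with 9 of 15 lower in the earlier interval and 5 of 15 in the later one (medians −0.75 and −0.57). As medians, the origin list had log2 differences of −1.05 and then −0.22, the fork list −1.04 and −0.35, the entry and exit list −0.47 and −0.88, and the kinetochore and spindle list −0.46 and −0.74. *CDC6* and *CCNB1* show the extremes: *CDC6* had a log2 difference of −1.47 from 6 h to 24 h and 0.00 from 24 h to 48 h (SE 0.10), and *CCNB1* 0.01 (SE 0.10) and then −1.20. Both intervals use the 24 h libraries, so that an error there would move the pair of values in opposite directions.

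**Figure D3:**
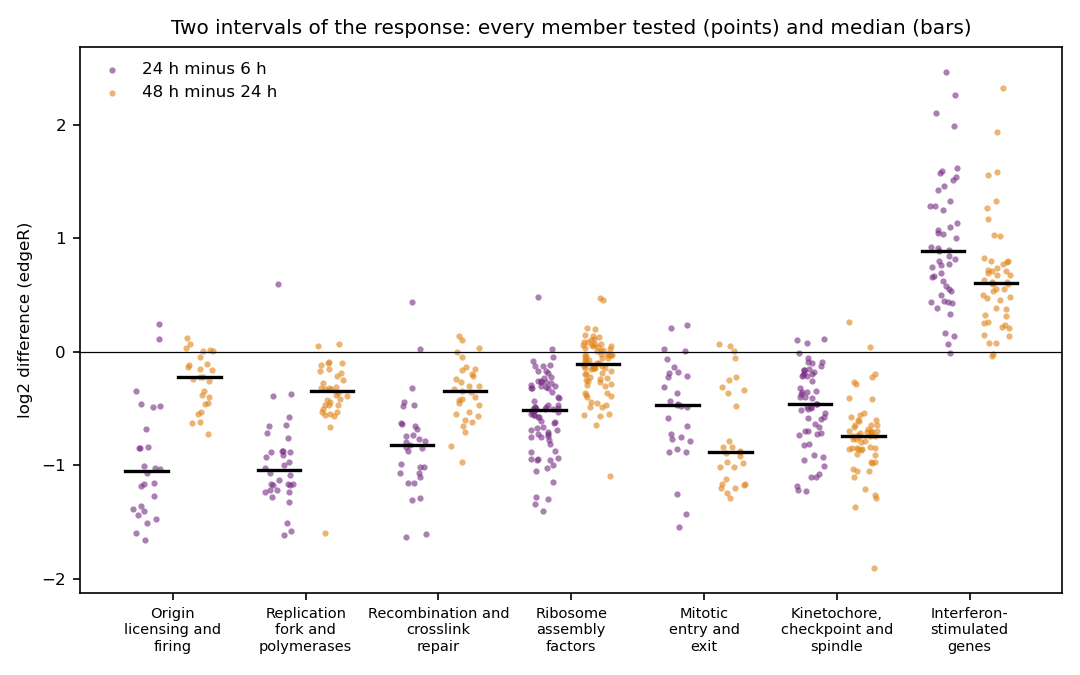
Log2 differences of every tested member of 7 gene lists from 6 h to 24 h (purple) and from 24 h to 48 h (orange), with the list median as a bar. The medians of the origin, fork, recombination and ribosome lists lie between −0.51 and −1.05 in the earlier interval and between −0.10 and −0.35 in the later one, while the mitotic lists have the larger median fall in the later interval and the interferon-stimulated genes rise in both.

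The CHR, read as TTTGAA or TTCGAA on either strand, was in 35 of 49 promoters of the kinetochore and spindle list (71.4%) and 10 of 24 of the entry and exit list (41.7%), against 16.6% of all promoters in the table. The CHR was in 2 of 22 promoters of the origin list (9.09%) and 1 of 30 of the fork list (3.33%). Among promoters of the genes tested the share was 11.7%. The promoters below are shown as examples of mitotic genes that fell, with the CHR in capitals, 12 to 59 bases before the start.
CCNB2 (chr15:59105092-59105145, plus strand): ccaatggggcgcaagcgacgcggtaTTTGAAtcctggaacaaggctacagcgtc
PLK1 (chr16:23678835-23678888, plus strand): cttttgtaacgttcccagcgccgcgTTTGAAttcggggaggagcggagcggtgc
CENPA (chr2:26786013-26786055, plus strand): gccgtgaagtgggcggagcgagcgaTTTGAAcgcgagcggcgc
CDC20 (chr1:43358891-43358946, plus strand): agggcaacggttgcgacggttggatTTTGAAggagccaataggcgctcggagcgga
*CCNB2* had a log2 difference of −1.27, *PLK1* of −1.72, *CENPA* of −1.29 and *CDC20* of −1.91.

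**Figure D4:**
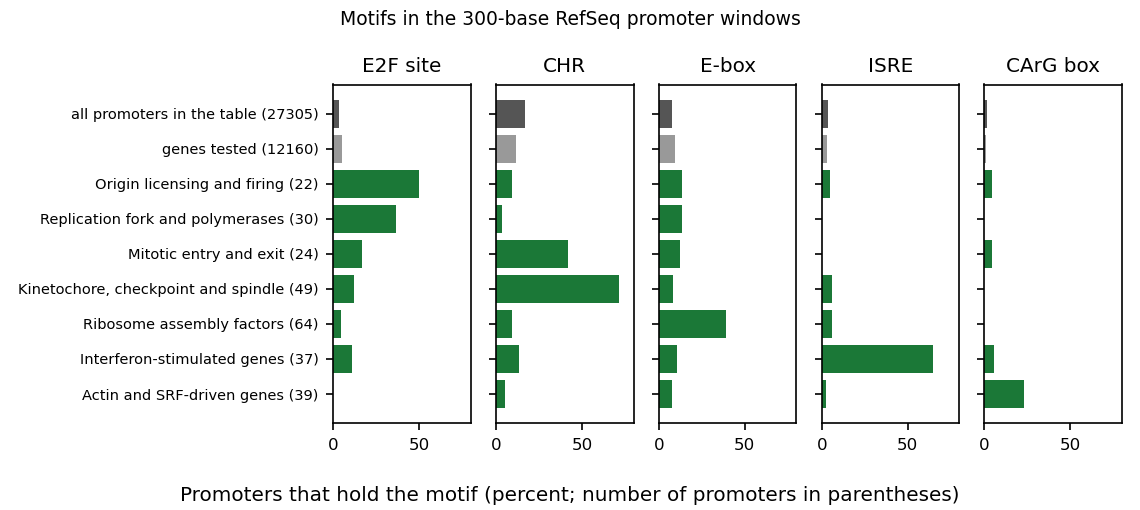
Percent of promoters that hold an E2F site, a CHR, an E-box, an ISRE or a CArG box, for all promoters in the RefSeq table (dark grey), the genes tested (light grey) and 7 gene lists (green). Among the 7 lists shown, each of these 5 motifs is highest in a list it is named for. These shares run from 23.1% (CArG box, actin genes) to 71.4% (CHR, kinetochore and spindle genes). Other motifs searched are not shown, and 2 of them were not highest in their own list. The TEAD site was in 33.3% of YAP and TEAD target promoters and 40% of 5 caveola promoters. The sterol response element was in 4.76% of cholesterol gene promoters and 6.06% of hypoxia and glycolysis promoters.

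The regulators above these genes moved unevenly. Of 24 cell cycle regulators, 14 fell (58.3%) and 2 rose (8.33%), against 17% and 16.2% of all genes. *E2F1*, an activator of S-phase genes, went from 122 and 129 CPM to 48.7 and 40.5 CPM (log2 difference −1.49, SE 0.13, adjusted p = 2.43e-05), and *FOXM1*, an activator of mitotic genes, from 245 and 276 CPM to 91.8 and 79.0 CPM (log2 difference −1.61, SE 0.13, adjusted p = 1.62e-05). *CCNE2*, a cyclin of S-phase entry, had a log2 difference of −1.73 (adjusted p = 3.11e-05). The 2 that rose were *RBL2* (1.00), which encodes the pocket protein p130 of resting cells, and *E2F5* (0.90), a repressive E2F. *CCND1*, the cyclin D1 gene, did not pass the test, at 587 and 643 CPM and 775 and 695 CPM (log2 difference 0.26, SE 0.18, adjusted p = 0.308).

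Of 5 CDK inhibitor genes tested, 2 fell (40%) and none rose, against 17% and 16.2% of all genes. With 5 genes these shares say little of the group. *CDKN1A*, which encodes p21, went from 118 and 124 CPM to 51.8 and 49.7 CPM (log2 difference −1.25, SE 0.22, adjusted p = 0.00168). That gene had stood at 49.6 and 56.3 CPM at 0 h, with a log2 difference of 1.19 from 0 h to 6 h (adjusted p = 0.0192). *CDKN1B*, which encodes p27, did not pass the test (0.23, adjusted p = 0.31). Among 26 genes of quiescence and of FOXO-driven transcription, 15 rose (57.7%) and none fell. Over both groups together 15 rose and 2 fell, and without 12 h replicate 1 it was 18 and 7. *KLF9*, *FOXO4* and *MXI1*, a MYC antagonist, had log2 differences of 1.85, 1.85 and 1.69, and *CCNG2*, the cyclin of arrested cells, 1.25. Of 19 p53 target genes, 4 rose and 5 fell, which is 21.1% and 26.3% against 16.2% and 17% of all genes.

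Genes that build ribosomes fell as well. Of 76 ribosome assembly factors, 51 fell (67.1%) and 1, *NOP53*, rose (1.32%), against 17% and 16.2% of all genes (median −0.65). *NOP53* had an adjusted p of 0.0463 that became 0.0505 with the replicate number as a block. *BOP1*, a factor of the large subunit, went from 241 and 289 CPM to 76.7 and 69.8 CPM (log2 difference −1.85, SE 0.13, adjusted p = 7.77e-06), and *NOP56*, a core protein of box C/D ribonucleoproteins, from 367 and 351 CPM to 144 and 154 CPM (log2 difference −1.27, SE 0.23, adjusted p = 0.00209). *TCOF1*, the nucleolar protein treacle, had a log2 difference of −1.54 and *FBL*, the methyltransferase fibrillarin, of −1.33. Of 36 genes of RNA polymerases I and III, 12 fell (33.3%) and 2 rose (5.56%), and without 12 h replicate 1, 22 fell. The largest fall was in *POLR3G* (−1.71). Of 79 cytosolic ribosomal protein genes, 33 fell (41.8%) and none rose (median −0.52), and without 12 h replicate 1 72 fell. With that dependence on GC content and length taken out, the counts were 52 of 76 lower for assembly factors and 30 of 79 lower and 2 higher for the ribosomal proteins, with a median of −0.33. The latter's transcripts are short and have many pseudogenes that share reads. *RPL26* had the largest called fall of the ribosomal proteins, from 79.2 and 89.7 CPM to 21.4 and 17.8 CPM.

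The E-box CACGTG, which reads the same on both strands and which MYC and related factors bind, was in 25 of 64 promoters of the assembly factors (39.1%). It was in 7.43% of all promoters and 9.51% of those of the genes tested. *MYC* itself did not pass the test (log2 difference −0.10, adjusted p = 0.743). The promoters of *IMP4* (−1.31) and *UTP20* (−0.88), both of the small subunit processome, are shown with the E-box in capitals.
IMP4 (chr2:130342669-130342724, plus strand): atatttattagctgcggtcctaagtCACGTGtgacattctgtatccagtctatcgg
UTP20 (chr12:101280070-101280104, plus strand): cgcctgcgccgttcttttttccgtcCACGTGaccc

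Interferon-stimulated genes had the largest share of members higher among the lists. Of 49 tested, 44 rose and none fell, against 16.2% of all genes higher, and the median log2 difference was 1.50. *IFI44L* (chromosome 1, 78619902 to 78646145, plus strand, GRCh38) stood at 44.8 and 39.9 CPM at 6 h and 347 and 389 CPM at 48 h (log2 difference 3.12, SE 0.14, adjusted p = 1.52e-06). *OAS2*, which makes the activator of RNase L, stood at 38.4 and 37.5 CPM and 318 and 299 CPM (log2 difference 3.02, SE 0.11, adjusted p = 4.32e-07). *MX1*, a GTPase that traps viral nucleocapsids, went from 28.7 and 28.5 CPM to 147 and 139 CPM (log2 difference 2.32, SE 0.11, adjusted p = 1.53e-06). The signalling arm moved too: *STAT2* had a log2 difference of 1.44, and the RNA sensors *IFIH1* and *RIGI* had 2.32 and 2.00. The 5 members that did not pass the test were *IRF1* (0.15), *GBP3* (0.26), *IRF9* (0.48), *IFITM2* (0.46) and *ISG20* (0.97). The IFITM and IFIT genes are clusters of close relatives that can share reads.

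Many of these genes stood lower at 6 h than before treatment. Against 0 h, 26 of 49 were lower at 6 h and none higher (median −0.76), where 1.49% of all genes were lower. At 48 h, 34 of 49 were higher than at 0 h and none lower (median 0.76), where 16% of all genes were higher. *IFI44L* stood at 129 and 126 CPM at 0 h, 44.8 and 39.9 CPM at 6 h, 93.7 and 77.3 CPM at 12 h, 176 and 187 CPM at 24 h and 347 and 389 CPM at 48 h. *MX1* stood at 67.9 and 70.0 CPM at 0 h and 33.8 and 35.6 CPM at 12 h, so that its level at 12 h was still under that at 0 h in both libraries. The comparisons of 6 h with 0 h and of 48 h with 6 h share the 6 h libraries, and those with 0 h share the 0 h libraries, so that these values stand side by side as a description.

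**Figure D5:**
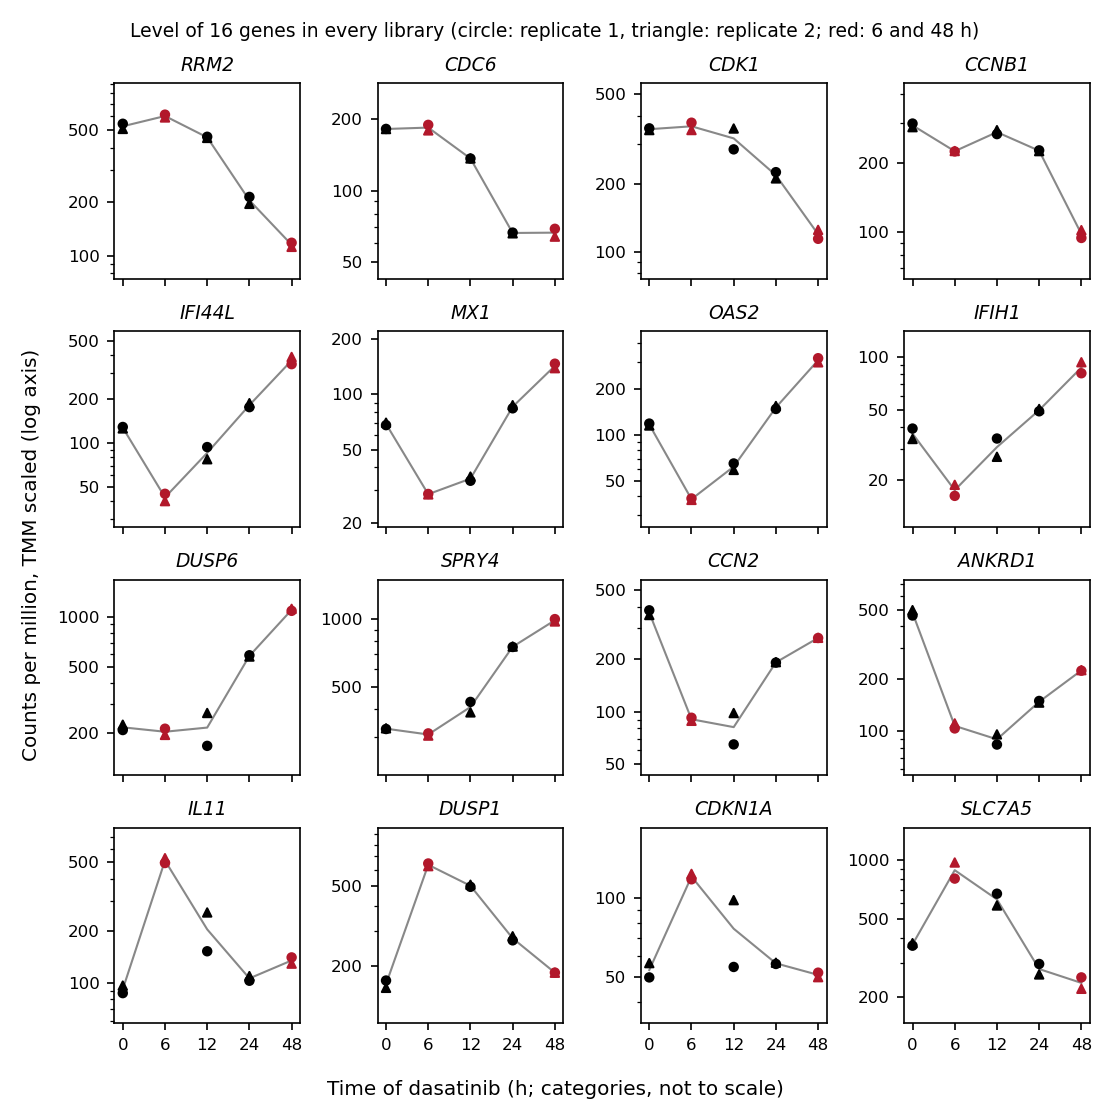
Level of 16 genes in each library in CPM (log axis) over the times of treatment, with replicate 1 as circles, replicate 2 as triangles, the group mean as a line and the 6 h and 48 h libraries in red. The upper row falls, with *CDC6* at its low level by 24 h and *CCNB1* later; the interferon-stimulated genes dip at 6 h and end above 0 h; *DUSP6* and *SPRY4* are highest at 48 h; and *IL11*, *DUSP1*, *CDKN1A* and *SLC7A5* peak at 6 h.

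The ISRE, read as GAAANNGAAA on either strand, was in 24 of 37 promoters of the interferon-stimulated genes (64.9%), against 3.65% of all promoters in the table. The stretches of *IFI44L*, *IFI6*, *BST2* and *ISG15* are shown with the match nearest the start in capitals. Those of *IFI6*, *BST2* and *ISG15* hold a further match upstream of it that is wholly or partly in lower case.
IFI44L (chr1:78620350-78620409, plus strand): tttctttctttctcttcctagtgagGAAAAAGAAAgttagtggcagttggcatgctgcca
IFI6 (chr1:27672251-27672310, minus strand): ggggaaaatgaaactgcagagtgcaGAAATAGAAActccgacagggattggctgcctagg
BST2 (chr19:17405720-17405779, minus strand): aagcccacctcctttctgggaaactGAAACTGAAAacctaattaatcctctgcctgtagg
ISG15 (chr1:1013365-1013424, plus strand): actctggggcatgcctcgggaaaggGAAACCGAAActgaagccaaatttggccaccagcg
*BST2*, which tethers budding virus to the cell surface, had a log2 difference of 3.58, *IFI6* of 1.49 and *ISG15*, the ubiquitin-like modifier, of 0.84.

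Antigen presentation moved less uniformly. Of 18 genes of MHC class I presentation, 7 rose (38.9%) and 1 fell (5.56%), against 16.2% and 17% of all genes. *HLA-B*, a classical heavy chain, went from 37.5 and 38.0 CPM to 103 and 97.1 CPM (log2 difference 1.41, SE 0.44, adjusted p = 0.0315), and *TAP1*, a peptide transporter subunit, had a log2 difference of 0.94, while its partner *TAP2* fell (−1.40, adjusted p = 0.0255). *B2M*, the light chain, did not pass the test (0.65). The HLA genes are close relatives that can share reads. The ISRE was in 7 of 14 promoters of this list (50%).

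Inflammatory genes split by member. Of 32 genes of NF-kappaB signalling and its targets, 9 rose (28.1%) and 3 fell (9.38%), against 16.2% and 17% of all genes. Without 12 h replicate 1, 17 rose. *CXCL8*, the neutrophil chemokine, went from 9.48 and 7.21 CPM to 23.7 and 27.1 CPM (log2 difference 1.61, SE 0.17, adjusted p = 8.00e-05), *ICAM1*, an adhesion receptor for leukocytes, from 1.14 and 1.12 CPM to 15.5 and 16.3 CPM (log2 difference 3.81, SE 0.27, adjusted p = 1.03e-05), and *CSF1*, the macrophage growth factor, had a log2 difference of 1.94. *IL11*, a cytokine of the interleukin 6 family (chromosome 19, 55364382 to 55370463, minus strand, GRCh38), went the other way, from 496 and 529 CPM to 140.3 and 129 CPM (log2 difference −1.93, SE 0.20, adjusted p = 8.22e-05). It had stood at 87.0 and 96.2 CPM at 0 h. *IL6* and *BCL3* did not pass the test (1.50 and 0.50).

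Feedback inhibitors of the ERK cascade rose after 6 h. From 6 h to 24 h, 11 of 26 ERK feedback genes were called higher, against 1416 of 15727 genes tested. From 24 h to 48 h it was 2 of 26, against 298 of 15727. Between 6 h and 48 h, 13 of 26 rose (50%) and 1 fell (3.85%), against 16.2% and 17% of all genes (median 0.70). Without 12 h replicate 1, 4 fell. Of 11 Sprouty, SPRED and related inhibitors, 9 rose (81.8%). *DUSP6*, the cytoplasmic phosphatase of ERK (chromosome 12, 89347235 to 89352501, minus strand, GRCh38), stood at 208 and 224 CPM at 0 h, 212 and 195 CPM at 6 h and 1087 and 1118 CPM at 48 h (log2 difference 2.44, SE 0.19, adjusted p = 1.62e-05). *SPRY4*, which blocks RAS activation, stood at 311 and 304 CPM and then 1004 and 979.5 CPM (log2 difference 1.69, SE 0.11, adjusted p = 6.93e-06), and *SPRY1* had a log2 difference of 1.95. The single member that fell was *DUSP1*, a nuclear phosphatase of stress-activated kinases, which stood at 170.1 and 157 CPM at 0 h, 646 and 627 CPM at 6 h and 186 and 186 CPM at 48 h (log2 difference −1.77, SE 0.11, adjusted p = 4.29e-06). Of 6 ETS factors that respond to ERK, *ETV1* rose (1.67), and *ETV4* (−0.35) and *ETS2* (−0.24) did not pass the test. *ETS1* (chromosome 11, 128458761 to 128587558, minus strand, GRCh38), the factor the study follows, stood at 84.4 and 80.9 CPM at 6 h and 94.9 and 95.7 CPM at 48 h (log2 difference 0.21, SE 0.10, adjusted p = 0.153). That gene was called higher without 12 h replicate 1 (log2 difference 0.20, adjusted p = 0.0287). Its fall lay before that interval, from 176 and 177 CPM at 0 h, with a log2 difference of −1.09 from 0 h to 6 h (adjusted p = 0.000630) and −0.89 from 0 h to 48 h (adjusted p = 0.000144).

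Of 23 immediate early factors 4 rose and 5 fell, which is 17.4% and 21.7% against 16.2% and 17% of all genes (without 12 h replicate 1, 7 and 8). *EGR1* went from 45.3 and 45.8 CPM to 127 and 118 CPM (log2 difference 1.42, SE 0.12, adjusted p = 2.56e-05) and *FOS* from 5.90 and 5.95 CPM to 10.9 and 9.12 CPM (log2 difference 0.76, SE 0.19, adjusted p = 0.0131). Their levels at 0 h were 181 and 170.4 CPM and 19.6 and 16.7 CPM, above both later times in every library. *FOSL1*, the AP-1 subunit that basal breast lines express, fell, from 244 and 248 CPM to 150.0 and 143 CPM (log2 difference −0.75, SE 0.14, adjusted p = 0.00288). *NR4A1*, an orphan receptor induced by many signals, had a log2 difference of 1.91 from 0 h to 6 h and −1.16 from 6 h to 48 h.

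Target genes of YAP and TEAD, the transcription factor pair that responds to cell spreading and tension, rose in part. Of 32 tested, 12 rose (37.5%) and 2 fell (6.25%), against 16.2% and 17% of all genes (without 12 h replicate 1, 5 fell). *CCN2*, a matricellular protein, stood at 381 and 358 CPM at 0 h, 92.1 and 88.5 CPM at 6 h and 264 and 265 CPM at 48 h (log2 difference 1.55, SE 0.17, adjusted p = 9.21e-05). *ANKRD1* stood at 462 and 496, 103 and 110.5 and 222 and 224 CPM at the same times (log2 difference 1.06, SE 0.11, adjusted p = 7.09e-05). *TGFB2*, a TGF-beta ligand, stood at 70.2 and 68.3, 15.9 and 18.0 and 66.2 and 67.0 CPM (log2 difference 1.97, SE 0.24, adjusted p = 0.000204). In *CCN2* and *ANKRD1* every 48 h library lay between the 6 h and the 0 h libraries, and in *TGFB2* both 48 h libraries were just under both 0 h libraries. *CCN1* (0.74, adjusted p = 0.0353) and *EDN1*, which encodes endothelin 1 (0.98, adjusted p = 0.0193), were nearer the threshold. The TEAD site GGAATG was in 8 of 24 promoters of the list (33.3%), against 14% of all promoters.

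Of 43 actin and SRF-driven genes, 13 fell and 4 rose, against 17% and 16.2% of all genes, and without 12 h replicate 1 21 fell and 9 rose. The median was −0.31, and −0.16 with the length and GC trend removed. *ACTB*, *PFN1*, which feeds actin monomers to filaments, and *TAGLN*, an actin-bundling protein, had log2 differences of −0.89, −1.17 and −1.78, and the filamin gene *FLNC* −1.18. *RHOB*, a small GTPase of endosomes and stress fibres, rose (1.28, adjusted p = 0.000209). *ACTA2* did not pass the test (−1.35, adjusted p = 0.0690). The CArG box of SRF was in 9 of 39 promoters of the list (23.1%), against 1.29% of all promoters. Of 7 caveola genes, *CAVIN2* and *CAV2* rose (28.6%) and none fell, against 16.2% and 17% of all genes. Without 12 h replicate 1 it was 3 and 2. *CAVIN2* stood at 239 and 267 CPM at 0 h, 53.02 and 53.8 CPM at 6 h and 171 and 186 CPM at 48 h (log2 difference 1.74, SE 0.11, adjusted p = 6.29e-06). *CAV1*, the coat protein, did not pass the test, at 637 and 641 CPM and 563 and 569.6 CPM (log2 difference −0.17, SE 0.11, adjusted p = 0.267). The fall of *CAV1* lay mostly before that interval, from 1040 and 1024 CPM at 0 h. Its log2 difference was −0.69 from 0 h to 6 h (adjusted p = 0.0103) and −0.87 from 0 h to 48 h (adjusted p = 0.000287).

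Matrix and adhesion genes rose in number. Of 39 matrix glycoproteins and laminins, 18 rose (46.2%) and 2 fell (5.13%), against 16.2% and 17% of all genes (median 0.47). Without 12 h replicate 1, 4 fell. *FN1*, fibronectin, went from 390.2 and 414 CPM to 1301 and 1345 CPM (log2 difference 1.72, SE 0.14, adjusted p = 1.73e-05), and *LAMA5*, a laminin chain of basement membranes, from 248 and 276 CPM to 1020.5 and 906 CPM (log2 difference 1.88, SE 0.20, adjusted p = 7.43e-05). *LAMC1*, a gamma chain found in most laminins, had a log2 difference of 1.31, while *LAMB1* fell (−0.77). Of 25 collagen chains, 8 rose (32%) and 3 fell (12%), against 16.2% and 17% of all genes. Without 12 h replicate 1, 11 rose and 6 fell. The list median had no stable sign: it was −0.17 in the fit and 0.15 without 48 h replicate 1, and the medians of the 4 pairs of a 48 h with a 6 h library ran from 0.00505 to 0.312. *COL6A1* (0.88) and *COL6A2* (0.88), chains of the beaded filament collagen VI, rose, and *COL1A1* (−0.59) and *COL12A1* (−0.69) fell. *COL4A1* did not pass the test (−0.36). *CREB3L1*, a membrane-bound transcription factor of matrix secretion, had a log2 difference of 1.61 (adjusted p = 2.87e-05).

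Of 16 integrin subunits, 8 rose (50%) and 1 fell (6.25%), against 16.2% and 17% of all genes (without 12 h replicate 1, 13 and 2). *ITGB4*, the beta subunit of the hemidesmosome integrin (chromosome 17, 75721328 to 75757818, plus strand, GRCh38), stood at 42.8 and 59.2 CPM at 6 h and 909 and 798 CPM at 48 h (log2 difference 4.07, SE 0.18, adjusted p = 1.52e-06). *ITGB3*, the beta subunit of the vitronectin receptor, went from 5.43 and 3.89 CPM to 36.8 and 38.2 CPM (log2 difference 3.01, SE 0.19, adjusted p = 6.17e-06), and *ITGA10*, a collagen-binding subunit, from 6.08 and 6.60 CPM to 57.7 and 56.8 CPM (log2 difference 3.17, SE 0.17, adjusted p = 2.79e-06). *ITGA6*, the alpha partner of ITGB4, changed by 0.49 (adjusted p = 0.0360). The 1 that fell was *ITGAE* (−1.05).

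Matrix proteases and their inhibitors had 12 of 41 members higher (29.3%) and 5 lower (12.2%), against 16.2% and 17% of all genes. Without 12 h replicate 1 it was 18 and 9. *MMP13*, collagenase 3, went from 1.11 and 1.03 CPM to 14.3 and 17.8 CPM (log2 difference 3.90, SE 0.35, adjusted p = 3.21e-05), and *TIMP3*, a matrix-bound inhibitor, from 34.0 and 37.6 CPM to 139 and 142 CPM (log2 difference 1.98, SE 0.12, adjusted p = 4.15e-06). *MMP3*, stromelysin 1, stood at 1.63 and 1.21 CPM and 0.776 and 0.363 CPM and did not pass the test (log2 difference −1.30, SE 0.63, adjusted p = 0.141), on 70 and 54 counts at 6 h and 38 and 16 counts at 48 h. Without 12 h replicate 1 it was called lower (log2 difference −1.31, adjusted p = 0.0167). *MMP1* did not pass it either (0.10). *ADAMTS6* went on falling, from 21.4 and 23.5 CPM at 0 h to 3.81 and 3.38 CPM at 6 h and 1.23 and 1.43 CPM at 48 h (log2 difference −1.44, SE 0.24, adjusted p = 0.00126).

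Secretory epithelial genes rose, and the mesenchymal markers were mixed. Of 24 mucins and secretory epithelial genes, 14 rose (58.3%) and none fell, against 16.2% and 17% of all genes (median 1.05). Without 12 h replicate 1, 1 fell. *MUC5AC* went from 66.2 and 73.0 CPM to 629 and 591 CPM (log2 difference 3.13, SE 0.29, adjusted p = 4.05e-05), and *AGR2*, a disulfide isomerase of mucin-secreting cells, from 12.1 and 10.9 CPM to 116 and 120.3 CPM (log2 difference 3.36, SE 0.20, adjusted p = 4.07e-06). *ELF3*, an epithelial ETS factor, had a log2 difference of 4.41 at low counts (7 and 2 in the 6 h libraries, 121 and 89 in the 48 h libraries). The luminal keratin *KRT8* and the luminal factor *FOXA1* did not pass the test (0.35 and 0.23), and the summed level of luminal and epithelial markers was 939 and 956 TPM at 6 h and 1440 and 1450 TPM at 48 h. Of 13 mesenchymal genes, 4 fell (30.8%) and 2 rose (15.4%), against 17% and 16.2% of all genes. Without 12 h replicate 1 it was 6 and 4. The log2 differences were −0.41 for *VIM* (adjusted p = 0.0244) and −0.81 for *CD44*. *CDH11*, cadherin 11, had 3.48, from 49.0 and 50.1 CPM to 546 and 561 CPM.

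Lipid genes rose in several branches. Of 28 genes of cholesterol synthesis and uptake, 15 rose (53.6%) and 2 fell (7.14%), against 16.2% and 17% of all genes. Without 12 h replicate 1, 4 fell. *HMGCS1*, the first committed enzyme of the pathway, went from 57.1 and 55.5 CPM to 131 and 141 CPM (log2 difference 1.27, SE 0.11, adjusted p = 2.45e-05). Of 18 fatty acid genes, 8 rose (44.4%) and 2 fell (11.1%) (without 12 h replicate 1, 12 and 4). Those that rose include *SREBF1*, the regulator of the branch (1.10), and *SCD*, the stearoyl desaturase (1.52). Of 19 genes of lipid efflux and lipoprotein receptors, 12 rose (63.2%) and none fell (median 0.81). Without 12 h replicate 1, 1 fell. *ABCA1* and *ABCG1*, which export cholesterol, had log2 differences of 3.17 and 4.67, with *ABCG1* at 10 and 22 counts at 6 h and 493 and 378 counts at 48 h. *LRP1*, a large endocytic receptor, went from 25.2 and 24.2 CPM to 128 and 112 CPM (log2 difference 2.28, SE 0.17, adjusted p = 1.19e-05). Of 48 lysosome genes, 22 rose (45.8%) and 4 fell (8.33%), and 7 fell without 12 h replicate 1. *ARSA* (1.51) and *TPP1* (1.45) were in front.

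Hypoxia and stress programmes parted. Of 19 HIF-induced genes outside glycolysis, 14 rose (73.7%) and 2 fell (10.5%), against 16.2% and 17% of all genes. Of 21 glycolytic genes, 8 rose (38.1%) and none fell. *NDRG1* went from 178 and 192 CPM to 1267 and 1128 CPM (log2 difference 2.69, SE 0.14, adjusted p = 2.37e-06), *CA9*, carbonic anhydrase 9, had a log2 difference of 1.79 and *VEGFA* of 1.53. *STC1* of the HIF list, which other stresses also induce, fell (−0.33) after a log2 difference of 2.48 from 0 h to 6 h, and *DDIT4*, an inhibitor of mTORC1 from the stress response list, fell (−0.57) after 2.72. The call of *STC1* (adjusted p = 0.0485) was lost with DESeq2 on all libraries (adjusted p = 0.0609). In the integrated stress response, 11 of 25 genes of the ATF4 programme fell (44%) and 3 rose (12%), against 17% and 16.2% of all genes. Of 13 endoplasmic reticulum chaperones, 10 rose (76.9%) and 1 fell (7.69%). *SLC7A5*, the large neutral amino acid transporter, stood at 366 and 377 CPM at 0 h, 803 and 969 CPM at 6 h and 252 and 221 CPM at 48 h (log2 difference −1.91, SE 0.14, adjusted p = 1.40e-05), and *HSPA5*, the chaperone BiP, went from 488 and 483 CPM to 952 and 987 CPM (log2 difference 1.00, SE 0.11, adjusted p = 0.000128).

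The kinases that dasatinib binds and the receptors above them changed in part. Of 32 SRC family genes, regulators and other targets, 7 rose (21.9%) and 3 fell (9.38%), against 16.2% and 17% of all genes. Without 12 h replicate 1, 6 fell. *SRC* went from 63.7 and 70.8 CPM to 41.5 and 38.1 CPM (log2 difference −0.76, SE 0.14, adjusted p = 0.00215), and *LYN*, the SRC family member linked to basal breast lines, did not pass the test (−0.20, adjusted p = 0.29). *CSK*, the kinase that shuts SRC off, fell (−0.89, adjusted p = 0.00202). Of 29 receptor tyrosine kinases and ligands, 14 rose (48.3%) and 2 fell (6.9%), against the same shares of all genes. *EGFR* went from 321 and 325 CPM to 477 and 485 CPM (log2 difference 0.57, SE 0.15, adjusted p = 0.0137), *TGFA*, one of its ligands, had a log2 difference of 1.45 and *MET* of 0.81. *AXL* stood at 664 and 782 CPM and 528 and 454 CPM and did not pass the test (log2 difference −0.56, SE 0.24, adjusted p = 0.0964). Of 40 semaphorins, plexins, ephrins and their receptors, 15 rose (37.5%) and 5 fell (12.5%), against 16.2% and 17% of all genes. *PLXND1* went from 83.9 and 91.8 CPM to 343 and 311 CPM (log2 difference 1.90, SE 0.13, adjusted p = 8.72e-06), and *NRP1*, the co-receptor of semaphorin 3A and VEGF, from 201 and 213 CPM to 540.2 and 569 CPM (log2 difference 1.42, SE 0.12, adjusted p = 2.45e-05), while *NRP2* fell (−1.07). Of 27 genes of the TGF-beta and activin axis, 6 rose and 3 fell, shares near the 16.2% and 17% of all genes (without 12 h replicate 1, 11 and 8). *INHBB*, an activin subunit, stood at 7.39 and 7.39 CPM and then 108 and 102 CPM (log2 difference 3.83, SE 0.17, adjusted p = 1.52e-06), and *ID1*, a target of the BMP branch, had a log2 difference of −1.70.

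Some genes moved far in the early phase and then moved back, in part or in full. *PMEPA1*, a TGF-beta feedback gene, stood at 15.2 and 14.2 CPM at 0 h, 80.9 and 86.4 CPM at 6 h and 27.0 and 19.0 CPM at 48 h (log2 difference −1.86, SE 0.17, adjusted p = 3.46e-05). *DMBT1*, a secreted scavenger receptor protein, stood at 2.39 and 2.66, 13.0 and 16.3 and 4.29 and 4.31 CPM at these times. At 48 h *DMBT1* was still called higher than at 0 h (log2 difference 0.77, adjusted p = 0.0110). Others went on in 1 direction: *PTGES*, a prostaglandin E synthase, stood at 14.9 and 13.9, 63.2 and 70.5 and 259 and 221 CPM, and *ADAM8*, a membrane protease, at 16.7 and 16.6, 38.2 and 35.8 and 101 and 86.2 CPM. *MARCHF4*, a ubiquitin ligase, went on downwards, at 40.5 and 37.3, 13.6 and 15.7 and 5.96 and 4.67 CPM. These genes were picked because both intervals passed the test, and both use the 6 h libraries.

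The intermediate times were placed between the early and the late level. For 87.8% of the genes that rose and 88.7% of those that fell, the 24 h mean lay between the 6 h and 48 h means, against 58.1% of all genes tested. The median gene had covered 66.8% of its rise and 66.7% of its fall on the log2 scale by 24 h, close to the 65.4% of all genes tested. The 12 h mean lay between for 79.2% and 80% of these genes, and for 81.8% and 82.8% with 12 h replicate 2 alone, against 46.6% and 54% of all genes. The 0 h mean lay between the 6 h and 48 h means for 62.6% of genes that rose and 62.9% of those that fell, against 43.4% of all genes. It lay on the far side of 6 h for 33.5% and 35%, and beyond the 48 h mean for 3.93% and 2.02%. The 6 h and 48 h means define these positions and the genes were chosen on their difference, so that the shares are a description.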

How the data were processed

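RNA of MDA-MB-231 cells was sequenced as 150-base paired ends. The authors trimmed reads with Trim Galore, checked them with FastQC and MultiQC, used STAR 2.5.2b for alignment (hg38) and featureCounts for counting, and deposited raw counts and TPM values per gene. The annotation and the strand setting are not given in the sources used here, so reads of antisense and overlapping genes cannot be told apart. Here the deposited counts of all 10 libraries were fitted with edgeR 4.0.16 (R 4.3.3; quasi-likelihood, TMM, filterByExpr by group), 48 h was tested against 6 h, and genes with an adjusted p under 0.05 were called. The fit was tested on simulated data: of genes changed 2-fold 56.7% were recovered, and of those changed 4-fold 80.3%. In the simulation far fewer genes changed than were called in the data, so these shares need not apply to the data. P-values measure the spread between labelled biological replicates. The gene lists and the genes named were chosen with earlier results of these data known. Named were the 10 largest called differences in each direction, leading list members and a fixed set. Genes called in both 6 h against 0 h and 48 h against 6 h were named too. The 10 largest needed an average log2 CPM from 2 upwards and both 48 h libraries beyond both 6 h libraries. A further 33 of the 178 genes named were picked after their values were seen, among them the promoter examples and most list members given as not passing the test. Alternatives used DESeq2 1.42.0, limma 3.58.1 on log2(TPM + 1) or log2(TPM + 0.1), and other filters and libraries. Promoter windows came from RefSeq.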

Additional observations from a re-analysis of the deposited data

How the results depend on the processing

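With edgeR on the 4 libraries of 6 h and 48 h alone, 4116 genes rose and 4300 fell. With a threshold of 0.01, 1549 rose and 1624 fell. Leaving out 1 library at a time gave 1392 to 4031 genes higher and 1400 to 4332 lower, with the low ends without a 6 h or 48 h library and the high ends without a 12 h library. With limma on log2(TPM + 1) and no filter, 633 genes fell by 2-fold or more. The cause of these shifts was not tested. The replicate numbers did not pair the samples, since the correlation of replicate differences between 6 h and 48 h was −0.011, and with the replicate number as a block 2531 genes rose and 2686 fell, with the calls of *NOP53* and *STC1* lost and those of *B2M* and *ISG20* gained. Of the genes named, 16 to 17 lost their call without a 6 h or 48 h library, 14 with limma on log2(TPM + 1) and no filter and 16 at a threshold of 0.01, and 20 gained one without 12 h replicate 1 and 20 without 12 h replicate 2. No call of the main test changed sign under these alternatives other than the 6 genes noted for the length and GC trend.

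The median of the collagens ran from −0.18 to 0.15 when 1 library was left out, with the positive value without 48 h replicate 1, and that of the p53 targets was 0.063 with the length and GC trend removed. The single gene among those named that changed sign was *IRF1*, which was not called and ran from −0.024 to 0.30 when 1 library was left out. With 2 libraries a group, a gene that did not pass the test may still have changed. In the simulated data, where far fewer genes changed than were called here, 7.46% of changes of 1.5-fold were recovered.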
